A study of Mus musculus with 14 samples.

Results

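This report describes 7 early transcription factor genes in the dorsal hippocampus of mice: the Fos family genes Fos, Fosb and Fosl2, the Jun family genes Jun, Junb and Jund, and Npas4. They were taken by name from the rows of both gene count tables, where they are 7 of 26570 genes in the basal table and 7 of 25933 genes in the learning table, and all 7 passed the filter on low counts in both. RNA-seq was performed on 14 libraries from male C57BL6 mice aged 8 months, WT or THY-Tau22. THY-Tau22 is a transgenic line in which a Thy1 promoter drives a mutated human Tau protein in neurons. The basal experiment held WT mice (n = 3) and THY-Tau22 mice (n = 2) that rested in the home cage without training and whose labels name no injection. The learning experiment held WT mice injected with saline and kept in the home cage (WT VEH_HC, n = 3), WT mice injected with saline and trained in the Morris water maze (WT VEH, n = 2), trained THY-Tau22 mice that received only the carrier, carbon nanospheres called CSP (TAU VEH, n = 2), and trained THY-Tau22 mice injected with CSP-TTK21, an activator of the acetyltransferases CBP and p300 on that carrier (TAU MOL, n = 2). Trained mice were killed 1 h after the last trial of the third training day. All WT mice of the learning experiment received saline and all THY-Tau22 mice received CSP, with or without TTK21, so genotype and carrier cannot be told apart. The learning experiment holds no THY-Tau22 library from the home cage, so the effect of training within that genotype was not measured in it.

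Fos and Jun proteins pair through leucine zippers to form the AP-1 transcription factor, which binds a short DNA element upstream of many genes. Fos, Fosb, Junb and Npas4 are immediate early genes, whose transcription in neurons begins within minutes of synaptic activity through factors such as CREB and SRF that are already present in the nucleus. Jund and Jun are also transcribed in resting neurons, and Npas4, a bHLH-PAS factor, is known for responding to calcium influx in neurons.

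In the mm9 genome, Fos (ENSMUSG00000021250) lies on chr12:86814840-86818223, Fosb (ENSMUSG00000003545) on chr7:19888070-19895394 and Fosl2 (ENSMUSG00000029135) on chr5:32438845-32460204. Jun (ENSMUSG00000052684), Junb (ENSMUSG00000052837) and Jund (ENSMUSG00000071076) are genes of 1 exon, on chr4:94715725-94718913, chr8:87500811-87502617 and chr8:73221638-73224515. Npas4 (ENSMUSG00000045903) has 8 exons on chr19:4984355-4989971. The library kit did not mark the strand, so reads cannot be assigned to a strand where genes overlap. Jun shares 232 exon bases with BC042782 and Jund shares 543 with Gm11175, both on the opposite strand. Of the 2872 stretches of 50 bases in Jund, 494 also occur in transcripts of other genes, so its counts are uncertain. The other 6 genes share no such stretch. GC content of the exons ranged from 51.9% in Fosl2 to 62.6% in Junb and 62.7% in Jund.

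The 500 bases upstream of each annotated start were searched on both strands for elements that CREB, SRF and AP-1 are known to bind. The CRE core TGACG was present upstream of 5 of the 7 genes, against 27.7% of 22362 promoters. Only Fosl2 and Jund among the 7 had no match. The CArG box, the element bound by SRF, was found upstream of Fos, 309 bases before the start, and of Fosb, 272 bases before it, against 2.71% of promoters. The full CRE TGACGTCA, which contains the core, the AP-1 element TGACTCA and the E box CACGTG had 0 matches upstream of the 7 genes, against 2.24%, 7.33% and 10.2% of promoters. Sequences are shown for the 4 genes whose transcripts rose with training in WT mice (values below), 5′ to 3′ along the gene, with the CArG box and the CRE core of either strand in capitals. The Fos window is chr12:86814510-86814789 (plus strand), that of Fosb chr7:19895435-19895684, that of Junb chr8:87502618-87502777 and that of Npas4 chr19:4989972-4990171 (minus strand), all in mm9.
Fos: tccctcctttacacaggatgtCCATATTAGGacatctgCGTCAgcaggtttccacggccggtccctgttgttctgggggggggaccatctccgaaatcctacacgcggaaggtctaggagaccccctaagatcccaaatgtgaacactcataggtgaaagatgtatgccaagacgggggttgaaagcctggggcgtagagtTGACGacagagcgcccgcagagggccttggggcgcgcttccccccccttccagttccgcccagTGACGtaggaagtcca
Fosb: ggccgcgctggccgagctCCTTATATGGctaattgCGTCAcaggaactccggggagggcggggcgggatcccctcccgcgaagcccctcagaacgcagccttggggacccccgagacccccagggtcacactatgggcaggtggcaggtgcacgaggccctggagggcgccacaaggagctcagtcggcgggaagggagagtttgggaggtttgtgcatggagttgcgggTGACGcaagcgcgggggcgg
Junb: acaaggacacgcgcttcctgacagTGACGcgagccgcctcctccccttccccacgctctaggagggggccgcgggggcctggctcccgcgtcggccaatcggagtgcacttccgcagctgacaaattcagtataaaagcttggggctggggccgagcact
Npas4: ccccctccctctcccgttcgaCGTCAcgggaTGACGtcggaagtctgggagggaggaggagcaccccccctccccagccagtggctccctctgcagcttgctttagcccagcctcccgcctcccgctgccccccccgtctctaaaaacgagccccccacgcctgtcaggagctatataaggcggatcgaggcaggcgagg
In Fos and Fosb the CArG box is followed within a few bases by a CRE core on the opposite strand, and another core lies 66 and 60 bases before the start. In Npas4 a pair of cores lies 179 and 169 bases before the start. A match is a description of the letters and not of binding.

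**Figure D1:**
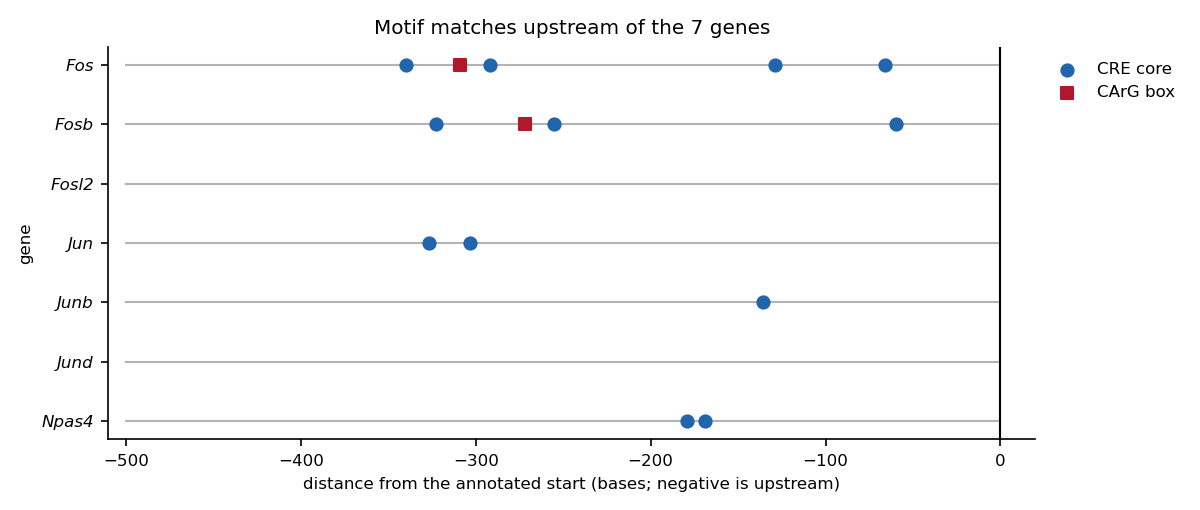
Matches to the CRE core and the CArG box in the 500 bases upstream of each gene, plotted by distance in bases from the annotated start at 0. Circles are CRE cores on either strand and squares are CArG boxes. Fos had 4 cores and Fosb 3, Jun and Npas4 2 each, Junb 1, and only Fos and Fosb had a CArG box.

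Libraries held from 24693713 to 52180305 counts on genes. Thy1, whose promoter drives the transgene, had 786 to 913 CPM (a gene's count relative to the TMM-scaled total of its library) in WT libraries and 1805 to 2352 CPM in THY-Tau22 libraries, with no overlap between the labelled genotypes. The 14 choroid plexus markers, all detected, summed to 158 to 412 CPM in WT VEH_HC, 2169 to 3122 CPM in WT VEH, 460 to 539 CPM in TAU VEH and 1062 to 1172 CPM in TAU MOL. The 7 markers of CA1 pyramidal cells summed to 443 to 467 CPM in TAU VEH and 563 to 810 CPM in the other learning groups. Counts also depended on GC content differently between libraries. Taken over genes, which are no replicates, the rank correlation (rho) of GC content with a library's log2 level relative to the average library ranged from 0.085 to 0.45 in WT libraries of the learning experiment and from -0.62 to -0.40 in its THY-Tau22 libraries.

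Compared per kilobase of exon, Jund had the highest group mean of the 7 in every group and Npas4 the lowest. Libraries of Jund and Jun overlapped in basal THY-Tau22 mice, and those of Fosb and Npas4 in basal WT mice and in TAU MOL. In WT VEH_HC the order of mean CPM per kilobase was Jund (65.8 ± 5.37, SD), Jun (41.6 ± 5.32), Junb (25.4 ± 1.01), Fosl2 (8.54 ± 2.06), Fosb (3.34 ± 0.448), Fos (2.04 ± 0.306) and Npas4 (1.8 ± 0.311) (n = 3 each). Fos and Npas4 overlapped between libraries, and the other neighbours did not. In WT VEH the order was Jund (58.7 ± 1.34), Junb (50.8 ± 0.547), Jun (32.3 ± 2.13), Fosl2 (11.9 ± 1.13), Fos (8.15 ± 1.27), Fosb (6.18 ± 0.349) and Npas4 (3.30 ± 0.584) (n = 2 each), with no overlap between neighbours. Junb thus stood above Jun, and Fos above Fosb, in trained WT mice. In TAU VEH, Jun (40.3 ± 2.07) stood above Junb (35.5 ± 1.59), and in TAU MOL the libraries of Junb (43.4 ± 5.83) and Jun (39.8 ± 6.0) overlapped.

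**Figure D2:**
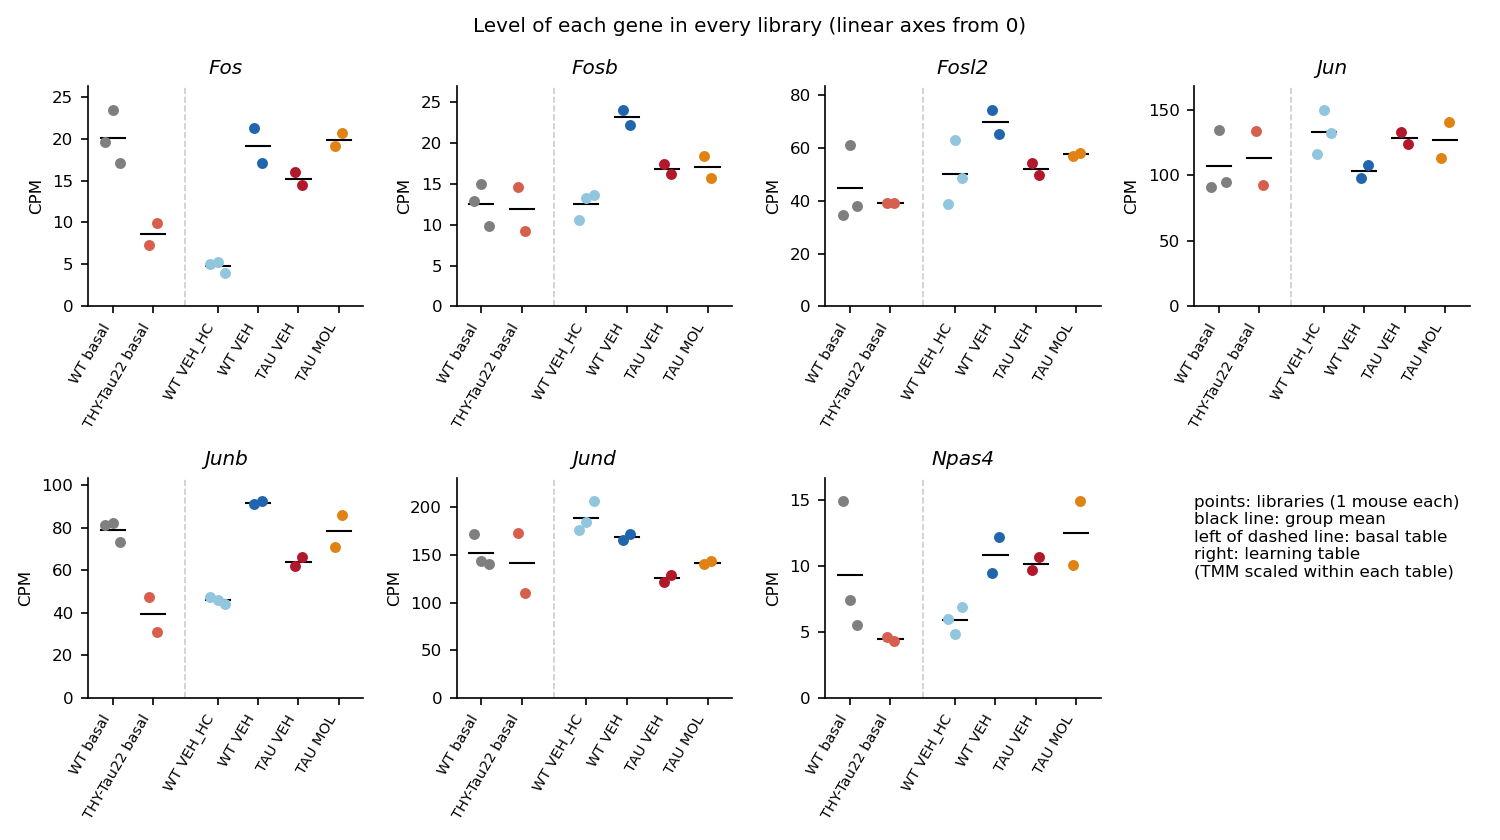
CPM of each of the 7 genes in every library on linear axes from 0, by group, with points for libraries and a black line for the group mean. The dashed line separates the basal table from the learning table, which were scaled separately. Fos lay between 3.97 and 5.30 CPM in the 3 WT VEH_HC libraries and between 14.4 and 21.3 CPM in the 6 libraries of trained mice.

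The first comparison, trained against home-cage WT mice, asked how spatial training changed these genes. Among the 7 genes, 4 rose (Fos, Fosb, Junb and Npas4), against 5.35% of the 16820 genes tested that were called higher, and 0 fell, against 3.05%. Calls here and in later comparisons needed a log2 fold change beyond 0.2 in either direction and an adjusted p below 0.05, from the quasi-likelihood test of edgeR after Benjamini-Hochberg correction across all genes. The libraries of both groups did not overlap for any of the 7 genes. In trained mice 5 lay above, against 23% of all genes, and 2 (Jun and Jund) lay below, against 20.8%. In tissue of mixed cells, fewer expressing cells and less RNA per cell cannot be told apart. All 14 choroid plexus markers were called higher in the same comparison, and their part in the results was not tested beyond the covariate given below. Of the neuronal markers, 2 of 8 for dentate granule cells were called lower (sums of 474 to 495 CPM against 520 to 692 CPM) and 2 of 7 for CA1 higher, while for CA3 1 of 7 was called higher and 1 lower. Markers of neurons in general summed to 5209 to 5812 CPM in WT VEH and 5879 to 5968 CPM in WT VEH_HC. Of these 7, 0 were called and 1 had a positive log2 fold change. The part of all these neuronal markers was not tested.

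Fos, the partner of Jun proteins that defines the classical AP-1 dimer, had 5.11, 5.30 and 3.97 CPM in WT VEH_HC and 21.3 and 17.1 CPM in WT VEH. Every trained library was more than 3 times as high as every home-cage library. The log2 difference was 2.00 (standard error, SE, of 0.13 with adjusted p = 2.31e-05), or 4.0-fold with a 95% interval of 3.28 to 4.89. Fosb, which can also give a shortened form, ΔFosB, that accumulates with repeated activity, had 10.6, 13.3 and 13.7 CPM in WT VEH_HC and 24.1 and 22.2 CPM in WT VEH. It rose by 0.88 on the log2 scale (SE 0.11, adjusted p = 0.0015). The counts are per gene and do not separate the forms of Fosb. Without WT VEH replicate 1 its adjusted p was 0.0543. Fosl2, which encodes Fra-2, had 38.8, 62.8 and 48.5 CPM in WT VEH_HC and 74.4 and 65.1 CPM in WT VEH. The lower trained library stood just above WT VEH_HC replicate 2, and the log2 fold change of 0.48 (SE 0.15) did not pass the limit (adjusted p = 0.065). It did so without that replicate (log2 fold change 0.68, adjusted p = 0.00174). Across 15 alternatives the range of adjusted p was 1.51e-15 to 0.929 for Fosb and 4.92e-07 to 0.929 for Fosl2.

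Junb had 47.7, 46.1 and 44.0 CPM in WT VEH_HC and 91.2 and 92.6 CPM in WT VEH. Relative to the group mean, its libraries were closer together in both groups than those of the other 6 genes. The log2 fold change was 1.0 (SE 0.08, adjusted p = 7.58e-05), or 2.00-fold with an interval of 1.77 to 2.26. Jun had 116, 150 and 132 CPM in WT VEH_HC and 98.1 and 108 CPM in WT VEH, a log2 fold change of -0.37 (SE 0.11, adjusted p = 0.0615). Jund, which is transcribed at a steady level in many cells, had 177, 185 and 206 CPM against 166 and 172 CPM, a log2 fold change of -0.17 (SE 0.07, adjusted p = 0.158). Both genes were lower in each trained library than in each home-cage library, but did not pass the limit. Jun passed it without WT VEH_HC replicate 1 (adjusted p = 0.0385) and in DESeq2 (0.0121), within a range of 7.64e-05 to 0.999 across 15 alternatives. Its log2 fold change ran from -0.46 to 0.03 over them, the highest with the choroid plexus covariate, where the direction turned.

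Npas4 had 5.95, 4.83 and 6.87 CPM in WT VEH_HC and 9.45 and 12.2 CPM in WT VEH. The trained libraries stood above the home-cage libraries by less than for Fos. It rose by 0.88 on the log2 scale (SE 0.19, adjusted p = 0.0212). The call was lost without WT VEH replicate 1 (adjusted p = 0.119) or replicate 2 (0.132), within a range of 6.45e-10 to 0.951 across 15 alternatives. Leaving out either replicate leaves 1 library in WT VEH, whose spread is then not measured. With the choroid plexus content of each library as a covariate, 0 of the 7 genes were called, while no gene of the 16820 tested was called. In that fit the log2 fold change was 2.51 (SE 0.49) for Fos, 1.23 (0.28) for Junb, 0.49 (0.38) for Fosb and 0.50 (0.65) for Npas4, so that the errors were at least 3 times those given above. Library offsets for length and GC content of the genes left Fos at 2.03, Junb at 1.07, Fosb at 0.97 and Npas4 at 0.95.

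**Figure D3:**
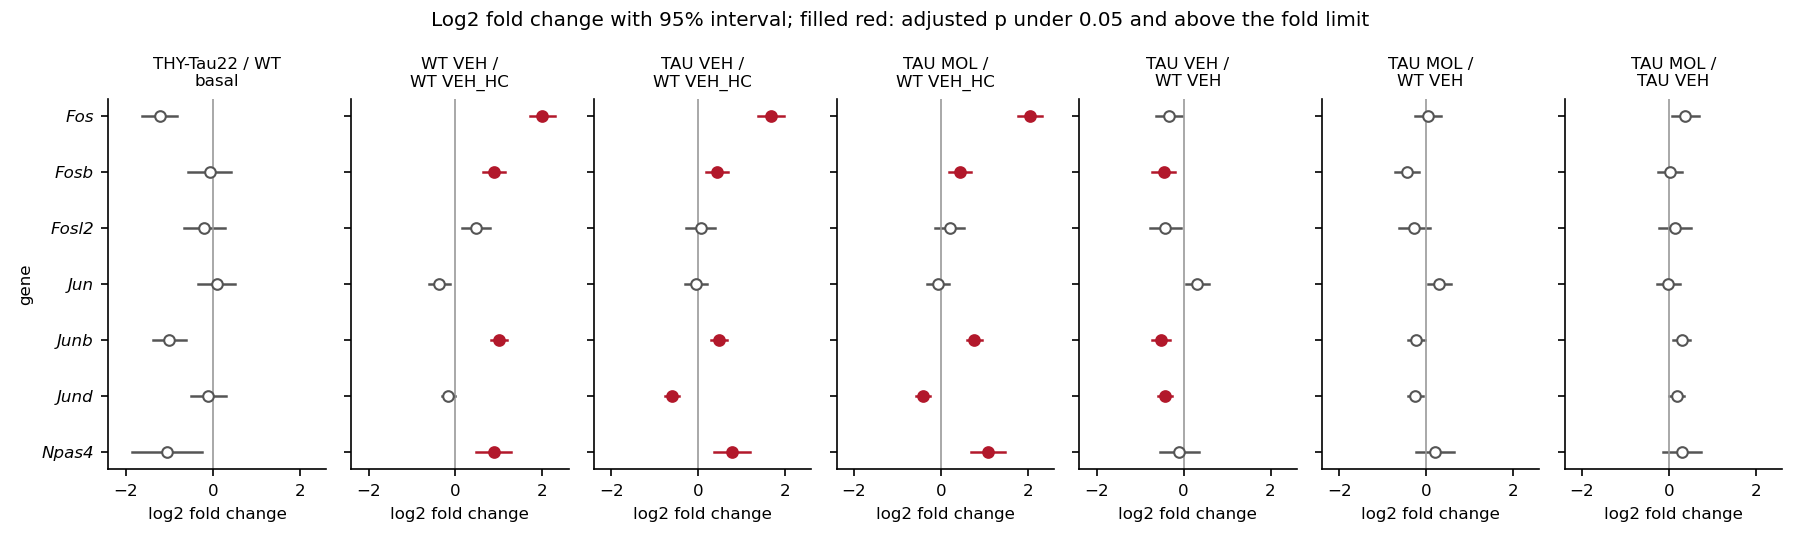
Log2 fold change of the 7 genes (points) with 95% intervals (lines) in each of the 7 comparisons, named above each panel as tested group over reference group. Filled red points passed the limits and open grey points did not. Fos was at 2.00, 1.67 and 2.05 in the 3 panels against WT VEH_HC, and no point was filled in the basal panel and both right-hand panels.

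Trained THY-Tau22 mice were compared with the same 3 WT VEH_HC libraries, so these values share their reference with the training comparison and differ from it in genotype and carrier as well as training. In TAU VEH, 4 of the 7 genes were called higher (Fos, Fosb, Junb and Npas4), against 16.2% of all genes, and Jund was called lower, against 18.2%. The log2 fold changes were 1.67 for Fos (SE 0.13, adjusted p = 0.000198), 0.48 for Junb (0.08, 0.00108), 0.78 for Npas4 (0.19, 0.00736) and 0.42 for Fosb (0.12, 0.0139). Jund was at -0.59 (0.07, 0.000247), while Fosl2 (0.06) and Jun (-0.05) overlapped between groups. In TAU MOL the same 4 genes were called higher, against 14% of all genes, and Jund was called lower, against 14.9%. Fos had a log2 fold change of 2.05 (SE 0.13, adjusted p = 2.15e-05), Npas4 of 1.08 (0.18, 0.00175), Junb of 0.77 (0.08, 0.00049) and Fosb of 0.44 (0.11, 0.0136). Jund was at -0.42 (0.07, 0.00194), and Fosl2 (0.20) and Jun (-0.07) overlapped.

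Markers of other cells moved in both comparisons. In TAU VEH, 5 of 14 choroid plexus markers and 5 of 7 astrocyte markers were called higher and 3 of 7 CA1 markers lower. In TAU MOL, 14 of 14 choroid plexus and 4 of 7 astrocyte markers were called higher, and of the 7 CA3 markers 4 were called lower and 1 higher. Of 7 markers of neurons in general, 2 (Rbfox3 and Syp) were called lower in both comparisons. Their sums were 5465 to 5482 CPM in TAU VEH, 5032 to 5152 CPM in TAU MOL and 5879 to 5968 CPM in WT VEH_HC. In TAU VEH 2 of the 7, and in TAU MOL 0, had a positive log2 fold change. With the choroid plexus covariate, 3 of the 7 genes were called in TAU VEH (Fos, Junb and Jund) and 1 in TAU MOL (Fos, at a log2 fold change of 2.38 with SE 0.34). The part of the neuronal and astrocyte markers was not tested.

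The Jund difference was smaller with offsets for GC content and gene length together, and no fit took GC content alone. Genes with 60% to 66% GC (701 genes) had a median log2 fold change of -0.44 in TAU VEH and -0.33 in TAU MOL against WT VEH_HC. With offsets for GC content and gene length, Jund was at -0.09 (adjusted p = 0.387) and -0.05 (0.638), within a range of adjusted p over 15 alternatives of 1.74e-12 to 0.695 and 1.47e-06 to 0.988. Junb, of nearly the same GC content, was higher with the offsets than without them, at 0.89 in TAU VEH and 1.06 in TAU MOL. The call of Fosb was lost without TAU VEH replicate 1 (adjusted p = 0.126, range 0.000382 to 0.268) and without TAU MOL replicate 1 (0.155, range 0.000259 to 0.833). That of Npas4 was lost without TAU VEH replicate 2 (0.0546, range 2.06e-08 to 0.151). Fosl2 was called in TAU MOL without WT VEH_HC replicate 2 (adjusted p = 0.0103, range 0.0103 to 0.794).

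The next comparison, TAU VEH against WT VEH, asked how trained THY-Tau22 mice differed from trained WT mice. Of the 7 genes, 3 fell (Fosb, Junb and Jund), against 10.8% of all genes that were called lower, and 0 rose, against 3.61%. Junb had 62.1 and 66.2 CPM in TAU VEH and 91.2 and 92.6 CPM in WT VEH, a log2 fold change of -0.52 (SE 0.09, adjusted p = 0.00295). Jund had 122 and 129 CPM against 166 and 172 CPM, a log2 fold change of -0.43 (0.08, 0.00391). Both TAU VEH libraries were below both WT VEH libraries for these genes, and Jund in TAU VEH was also below all WT VEH_HC libraries, whereas Junb lay between the trained and the home-cage WT mice.

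Fosb had 17.4 and 16.2 CPM in TAU VEH against 24.1 and 22.2 CPM in WT VEH, a log2 fold change of -0.46 (SE 0.12, adjusted p = 0.029). Fos had 16.0 and 14.4 CPM against 21.3 and 17.1 CPM, a log2 fold change of -0.33 (0.14, 0.149), and Fosl2 had 54.3 and 49.8 CPM against 74.4 and 65.1 CPM, a log2 fold change of -0.42 (0.17, 0.121). All 3 Fos family genes were lower in both TAU VEH libraries, and only Fosb passed the limit. Jun had 133 and 124 CPM against 98.1 and 108 CPM and was the only gene of the 7 with higher libraries in TAU VEH (log2 fold change 0.32, SE 0.12, adjusted p = 0.111). It was called in 5 of 14 alternatives, over which its log2 fold change ran from 0.06 to 0.49 and its adjusted p from 0.00201 to 0.933. Npas4 had 9.65 and 10.6 CPM against 9.45 and 12.2 CPM and overlapped (log2 fold change -0.09, 95% interval -0.53 to 0.35). In all, 5 genes had TAU VEH libraries below WT VEH, against 29.4% of all genes, and 1 above, against 28.5%.

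All 3 calls of TAU VEH against WT VEH were lost with offsets for GC content and gene length together. Genes with 60% to 66% GC had a median log2 fold change of -0.37, and those with 50% to 58% GC (6769 genes) of -0.09. In that fit 0 of the 7 genes were called. The log2 fold changes were then -0.02 for Jund (adjusted p = 0.938, range over 14 alternatives 1.52e-05 to 0.938), -0.18 for Junb (0.369, range 2.98e-07 to 0.369) and -0.25 for Fosb (0.327, range 0.00104 to 0.753). Fos at -0.31 and Fosl2 at -0.36 changed by less than 0.1 with these offsets. Across 14 alternatives the log2 fold change of Fos ran from -0.67 to -0.15 and that of Fosl2 from -0.62 to -0.27. CA1 markers were also lower in TAU VEH, with 4 of 7 called, as were choroid plexus markers, with 13 of 14 called, and 3 of 7 astrocyte markers were called higher (sums of 4923 to 5025 CPM against 3901 to 4183 CPM). Of 7 markers of neurons in general, 2 (Rbfox3 and Syp) were called lower, and 3 had a positive log2 fold change. With the choroid plexus covariate 0 of the 7 genes were called, and Junb was at -0.67 (SE 0.20). No gene of the 16820 tested was called in that fit. The part of the CA1, neuron and astrocyte markers was not tested. Fosb lost its call without any 1 of the 4 libraries compared, and Jund without TAU VEH replicate 1, in fits that each leave 1 library in a group.

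**Figure D4:**
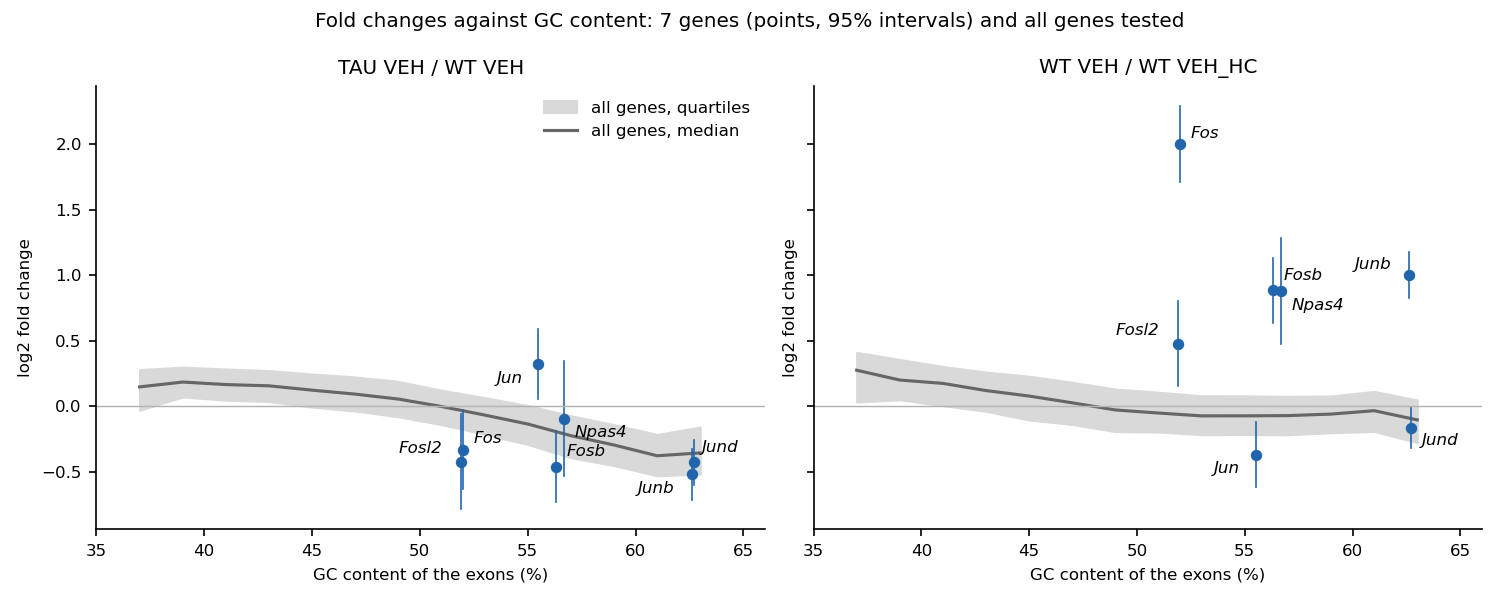
Log2 fold change against the GC content of the exons for TAU VEH over WT VEH (left) and WT VEH over WT VEH_HC (right). Points with 95% intervals are the 7 genes, and the grey line and band are the median and quartiles of all genes tested in bins of GC content. On the left Junb (-0.52) and Jund (-0.43) sit where genes of 60% to 66% GC have a median of -0.37, and on the right Fos (2.00) and Junb (1.0) stand far above the band.

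CSP-TTK21 was compared with its carrier in trained THY-Tau22 mice. None of the 7 genes was called by edgeR's quasi-likelihood test or by DESeq2, against 0% of all genes by edgeR and 0.208% by DESeq2. Fos had 19.1 and 20.6 CPM in TAU MOL and 16.0 and 14.4 CPM in TAU VEH, a log2 fold change of 0.38 (95% interval 0.08 to 0.68, adjusted p = 0.667). Junb had 71.1 and 85.9 CPM against 62.1 and 66.2 CPM, a log2 fold change of 0.29 (0.10 to 0.49, adjusted p = 0.517). Jund had 140 and 143 CPM against 122 and 129 CPM, a log2 fold change of 0.18 (0.01 to 0.35, adjusted p = 0.776). Libraries of TAU MOL lay above those of TAU VEH for these 3 genes and for Fosl2 (56.9 and 58.2 CPM against 54.3 and 49.8 CPM), 4 of 7, against 21.5% of all genes. The remaining genes, Fosb (18.4 and 15.7 CPM against 17.4 and 16.2 CPM), Jun (113 and 140 CPM against 133 and 124 CPM) and Npas4 (10.1 and 14.9 CPM against 9.65 and 10.6 CPM), overlapped. The summed choroid plexus markers were higher in TAU MOL as well (1062 to 1172 CPM against 460 to 539 CPM), as were the CA1 markers (623 to 654 CPM against 443 to 467 CPM), and the CA3 markers were lower (1068 to 1129 CPM against 1345 to 1420 CPM). Markers of neurons in general summed lower too (5032 to 5152 CPM against 5465 to 5482 CPM), though 3 of these 7 had a positive log2 fold change. With the choroid plexus covariate, Fos was at 0.54 (SE 0.20), Junb at 0.37 (0.12) and Jund at 0.06 (0.10), with 0 of the 7 called. The part of the CA1, CA3 and neuron markers was not tested. With the offsets for GC content and gene length, Fos was at 0.38, Junb at 0.17 and Jund at 0.04.

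Against WT VEH, 0 of the 7 genes were called in TAU MOL by edgeR and 2, Fosb and Jund, by DESeq2, against 5.63% of all genes by edgeR and 5.11% by DESeq2. Fos was at a log2 fold change of 0.05 (95% interval -0.25 to 0.35), Npas4 at 0.21 (-0.23 to 0.64) and Junb at -0.23 (-0.42 to -0.03, adjusted p = 0.175). Fosb was at -0.44 (-0.71 to -0.17, adjusted p = 0.0591), close to its value in TAU VEH. Jund was at -0.25 (adjusted p = 0.0897), Fosl2 at -0.28 and Jun at 0.30. Genes with 60% to 66% GC had a median of -0.27 in this comparison, and with offsets for GC content and gene length Jund was at 0.02 and Junb at -0.000459. Choroid plexus markers were lower, with 7 of 14 called, and 2 of 7 astrocyte markers were called higher (sums of 4696 to 5266 CPM against 3901 to 4183 CPM). The CA1 markers summed to 623 to 654 CPM in TAU MOL and 728 to 806 CPM in WT VEH, with 1 of 7 called lower, and 1 of 7 CA3 markers was called lower. Markers of neurons in general summed to 5032 to 5152 CPM in TAU MOL and 5209 to 5812 CPM in WT VEH. Of these 7, 0 were called and 3 had a positive log2 fold change. The part of all these markers was not tested beyond the choroid plexus covariate, with which Jund was at -0.13 and Junb at -0.31. The libraries of Fosb, Fosl2, Junb and Jund were below those of WT VEH, 4 of 7, against 26.9% of all genes, and those of Jun above, against 25.6%. The comparisons of TAU MOL and of TAU VEH with WT VEH share the WT VEH libraries.

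In untrained mice, THY-Tau22 was compared with WT in the basal experiment. Fos had 7.32 and 9.90 CPM in THY-Tau22 and 19.6, 23.4 and 17.0 CPM in WT mice. Junb had 47.5 and 31.1 CPM against 81.2, 82.5 and 73.3 CPM, and Npas4 4.62 and 4.34 CPM against 14.9, 7.41 and 5.53 CPM. These 3 genes had both THY-Tau22 libraries below all WT libraries, against 9.49% of all genes. Their log2 fold changes were -1.22 (SE 0.18, adjusted p = 0.101), -1.01 (0.17, 0.191) and -1.05 (0.36, 0.901). For Npas4, whose WT mean leaned on the library at 14.9 CPM, it ran from -1.31 to -0.52 across 14 alternatives, 2 of which called it. None of the 7 genes was called by edgeR's quasi-likelihood test, against 0.0245% of all genes, that is 4 genes. DESeq2 called 2, Fos (adjusted p = 2.21e-06, range over 14 alternatives 2.21e-06 to 0.212) and Junb (1.19e-05, range 1.19e-05 to 0.336), against 0.167% of all genes by DESeq2. The study chose Fos and Junb as immediate early genes to show on these same libraries and again on those of the learning experiment, so their values are not independent evidence of a direction in either.

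The other 4 genes overlapped between the basal groups. Fosb had 14.6 and 9.26 CPM in THY-Tau22 and 12.9, 15.0 and 9.80 CPM in WT mice (log2 fold change -0.07, 95% interval -0.56 to 0.42). Fosl2 had 39.0 and 39.3 CPM against 34.8, 61.1 and 38.1 CPM (-0.19, -0.67 to 0.28). Jun had 134 and 92.7 CPM against 91.3, 134 and 94.6 CPM, and Jund 173 and 110 CPM against 172, 144 and 140 CPM. The spread within groups was wider here than in the learning experiment for Jun and Jund, whose highest and lowest THY-Tau22 values came from the same libraries, replicates 1 and 2, which had rho values of GC content of 0.48 and -0.60. With offsets for GC content and gene length, the log2 fold changes were -1.18 for Fos, -0.92 for Junb (the only one of the 7 then called, adjusted p = 0.00985) and -0.98 for Npas4. Without THY-Tau22 replicate 1, Junb was called (adjusted p = 0.0258). Markers of other cells also differed between the basal groups, though none was called. Choroid plexus markers summed to 699 to 1980 CPM in THY-Tau22 and 596 to 712 CPM in WT mice, which overlap. The sums did not overlap for astrocyte markers, at 5079 to 6181 CPM against 4497 to 4730 CPM, microglia markers, at 480 to 515 CPM against 434 to 453 CPM, and oligodendrocyte markers, at 6737 to 7066 CPM against 7256 to 11992 CPM. With the choroid plexus covariate the log2 fold changes were -1.49 for Fos, -0.76 for Junb and -1.12 for Npas4, with 0 of the 7 called. The part of the astrocyte, microglia and oligodendrocyte markers was not tested.

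The share of each gene within its family was computed in each library from CPM per kilobase, which cancels the scaling between libraries. It does not cancel the dependence on GC content, which differed between WT and THY-Tau22 libraries of the learning experiment. Exons of Junb and Jund have 62.6% and 62.7% GC and those of Jun 55.5%. Shares of the Jun family carry this limit and the uncertain counts of Jund. Fos made up 12.4% to 18.7% of the Fos family in WT VEH_HC, 29.8% to 32.1% in WT VEH, 32.3% to 32.9% in TAU VEH and 35.6% to 38.3% in TAU MOL. The 3 trained groups all lay above the home-cage group. In the basal experiment Fos made up 40.9% to 47.1% of the family in WT and 22.8% to 31.4% in THY-Tau22 mice. Junb made up 17.7% to 21.3% of the Jun family in WT VEH_HC, 35.4% to 36.3% in WT VEH, 29.0% to 30.5% in TAU VEH and 31.8% to 33.6% in TAU MOL. The 4 groups did not overlap in this share. In the basal experiment it was 33.1% to 34.1% in WT and 20.4% to 20.5% in THY-Tau22 mice.

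**Figure D5:**
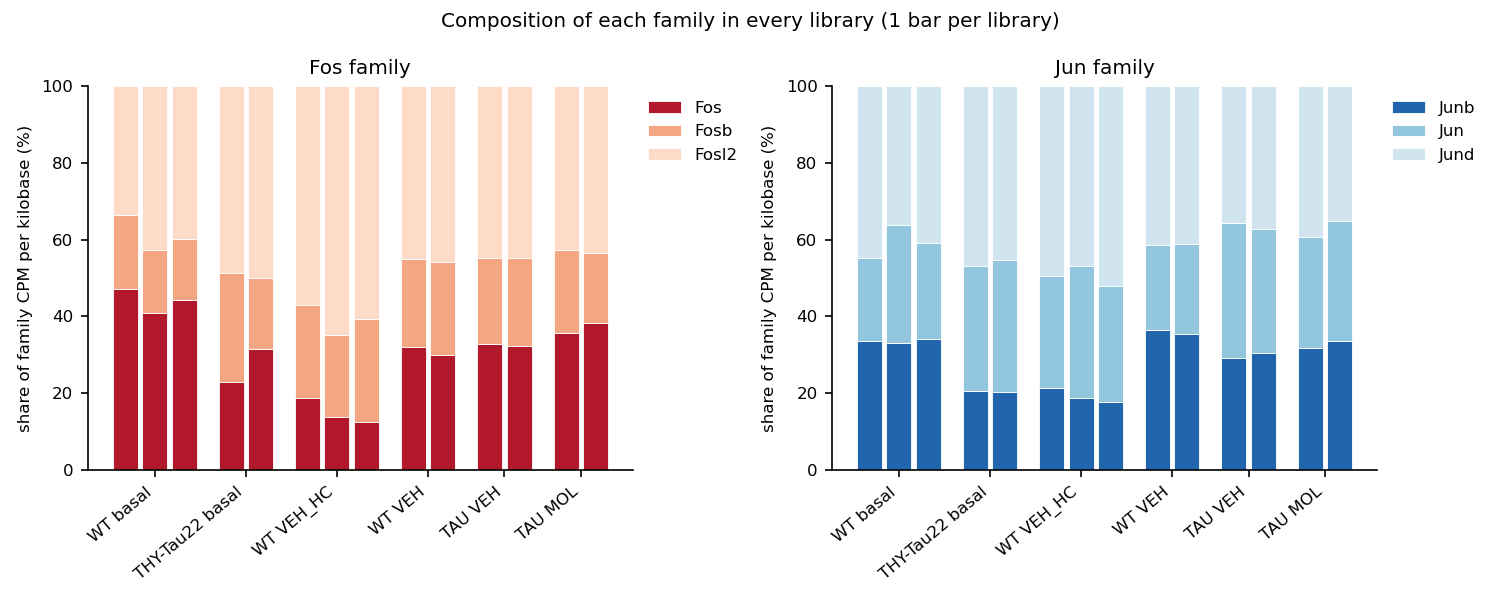
Share of each gene in the summed CPM per kilobase of the Fos family (left) and the Jun family (right), in percent, with 1 stacked bar per library and libraries ordered by group. Fos took 12.4% to 18.7% of its family in WT VEH_HC and 29.8% to 38.3% in the 3 trained groups, and Junb took 17.7% to 21.3% and 29.0% to 36.3% of its own.

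Partners, inducers and targets of these factors were read from lists. They were read without the GC and length offsets and without the choroid plexus covariate. With that covariate no gene was called in WT VEH against WT VEH_HC or in TAU VEH against WT VEH. Of the AP-1 partners and relatives (14 rows tested, Atf7 being listed under 2 identifiers), 3 rose with training in WT mice and 0 fell, against 5.35% and 3.05% of all genes. These were Atf3, a stress and activity-induced factor (1.90 CPM in WT VEH against 0.902 CPM in WT VEH_HC, log2 fold change 1.06, adjusted p = 0.0185), Maff (1.70 against 0.949 CPM, 0.83, adjusted p = 0.0452) and Atf4 (101 against 85.2 CPM, 0.25, adjusted p = 0.043), by edgeR. The median log2 fold change of this list was 0.06, with that of all genes within 0.01 of 0. The 5 Npas4 partners and relatives tested, such as its dimer partner Arnt2, had a median of -0.11, and none passed. In TAU VEH against WT VEH, where 10.8% of all genes were called lower, 1 of each list was lower, Mafg (log2 fold change -0.40, adjusted p = 0.01) and Npas2 (-0.50, adjusted p = 0.0021).

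Among 19 inducers, the kinases and transcription factors known to act upstream of the 7 genes, 0 rose and 2 fell with training in WT mice, against the same shares of all genes, the ERK kinase Mapk3 (log2 fold change -0.28, adjusted p = 0.0288) and its substrate Elk1 (-0.34, adjusted p = 0.0422). In TAU VEH against WT VEH, 4 were higher and 4 lower by edgeR, against 3.61% and 10.8% of all genes. The lower ones were Srf (85.9 against 125 CPM, log2 fold change -0.54, adjusted p = 0.00148), Crtc1, Mef2d and Rps6ka4, and the higher ones included Camk4 (90.0 against 69.3 CPM, 0.38, adjusted p = 0.00242), Creb1 and Mef2a. With the GC and length offsets, which were not read for these inducers, 0 of the 7 genes were called in this comparison. In TAU MOL against WT VEH, which shares the WT VEH libraries, Srf, Crtc1, Mef2d and Rps6ka4 were called lower, against 5.02% of all genes. Of 12 target genes, 1 rose with training (Csrnp1, log2 fold change 0.29, adjusted p = 0.0496) and 1 fell (Pdyn, which encodes prodynorphin, -0.41, adjusted p = 0.0377), against 5.35% and 3.05% of all genes.

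A list of other activity-induced genes was read in the same way. Of 21 tested, 14 were called higher in WT VEH against WT VEH_HC and 0 lower, against 5.35% and 3.05% of all genes, with a median log2 fold change of 0.51. Arc, which encodes a synaptic protein, had 401 CPM against 144 CPM (log2 fold change 1.47, adjusted p = 1.64e-05), and Egr2 had 8.20 against 0.764 CPM (3.42, adjusted p = 1.24e-05). In TAU VEH against WT VEH, 11 were lower and 0 higher (median -0.35), against 10.8% and 3.61% of all genes. This list too was read without the GC and length offsets and the choroid plexus covariate. With the covariate no gene was called in either comparison. In TAU MOL against TAU VEH, where no gene of the whole table was called by edgeR, the median was 0.22. Medians of all genes lay within 0.01 of 0. In the basal comparison, where 0.0245% of all genes were called, 2 of 21 were lower, Arc (71.2 against 238 CPM, -1.74, adjusted p = 0.0261) and Nr4a1 (38.8 against 86.2 CPM, -1.15, adjusted p = 0.016).

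Likeness was measured over the 9 learning libraries as the root mean square difference of log2 CPM after each gene was centred, among 13810 other genes with a mean of at least 1 CPM. The genes nearest to Fos were Plekhf1 (0.36), Arc (0.37) and Fam46a (0.37), at distances that remain large beside its own spread of 0.92. The gene nearest to Junb was Nr4a1, an orphan nuclear receptor induced by activity (0.12, against a spread of 0.40), followed by Arl4d and Slc31a1. Nearest to Npas4 were Angpt1 (0.19), Mtfr1 and Cd53, to Fosb Slco1c1 (0.08), Frem1 and Nqo1, and to Fosl2 mt-Ti (0.09), Zfp366 and Ly6c1. Jun was nearest to Prox1 (0.06), Bbs12 and Lingo2, and Jund to Fam100a (0.03), Slc45a1 and Eef1a2. Among the 7 genes themselves, Fosb and Fosl2 were the nearest pair (0.20), and Fos and Jund the farthest (1.10).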

How the data were processed

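Gene expression was measured by RNA-seq of the dorsal hippocampus in 14 libraries, grouped by their labels. The authors made poly-A libraries without strand marking, read them single-end, mapped the reads on mm9 using TopHat2 2.0.10 and Bowtie2 2.1.0, and counted unique reads on Ensembl genes with HTSeq 0.5.4p3. The authors deposited raw counts per gene, used here, beside a normalized signal (counts divided by 1 factor per library), which was not used for any value. The study left 3 learning libraries out, which were not analysed here. The paper cites high variability between samples, places the 3 mice in 1 litter, and says that the criteria were set afterwards. The spread within the groups kept may thus be narrower than in all mice sequenced. From the learning counts, 138 lines without values were dropped. The number of columns without a sample was 0.

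Counts were scaled by TMM and tested with edgeR 4.0.16 (quasi-likelihood F test, filterByExpr, Benjamini-Hochberg adjustment over all genes) in R 4.3.3, 16324 genes in the basal fit and 16820 in the fit of the 9 learning libraries. CPM per kilobase used the exon length of mm9 GENCODE M1. DESeq2 1.42.0, other scalings and filters, offsets for GC content and length (loess span 0.3), a choroid plexus covariate, a replicate block and leaving out each library were alternatives. Figures were made with Python 3.11.15 and matplotlib 3.10.9. With 2 or 3 mice per group, p-values measure the spread between these mice, which in the learning experiment are those the study kept. Like genes are the 3 nearest to each gene. Members, lists and markers were chosen with earlier results of these data known, and list genes are named only where called in some comparison.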

Additional observations from a re-analysis of the deposited data

How the results depend on the processing

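Fold changes of the 7 genes were recomputed under 707 combinations of gene, comparison and alternative. Of these, 637 kept their state, called or not called, 35 lost a call, 35 gained one and 0 of the called values changed sign. The 637 include the values called in neither fit. Several settings moved the count of genes called, and the cause was not tested. The basal count of 0 became 2 with DESeq2, 3 with no filter on low counts and 1 with the GC and length offsets, while the genes called in all went from 4 of 16324 to 41 of 24594, 125 of 24594 and 9 of 16324. Training in WT mice went from 4 to 0 with the choroid plexus covariate (1413 to 0 of 16820 genes in all). TAU VEH against WT VEH went from 3 to 5 with no filter, 0 with the GC and length offsets, 0 with the choroid plexus covariate and 5 with only the groups compared (2423 of 16820 genes in all to 2872 of 25933, 444 and 0 of 16820, and 3399 of 16205). TAU MOL against WT VEH went from 0 to 2 with DESeq2, 4 with no filter and 2 with only the groups compared (947 of 16820 genes in all to 1324 and 1590 of 25933, and 1490 of 16209). Against WT VEH_HC, the covariate took TAU VEH from 5 to 3 and TAU MOL from 5 to 1 (5782 to 2395 and 4864 to 17 of 16820 genes in all). Leaving out 1 library at a time also moved the count, except in TAU MOL against TAU VEH and against WT VEH. Many of these fits leave a lone library in a group, which was taken to vary like the others, so their counts are not given. Library size alone moved the median of all genes by 0.15 in TAU VEH against WT VEH, where Fosb lost its call.

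The replicate numbers were not taken to pair the libraries. Correlations of deviations between same-numbered libraries ran from -0.16 to 0.24. In groups of 2 libraries the deviations mirror each other, so these correlations cannot exclude pairing. With the replicate block, 3 of the 7 genes were called in the basal comparison, 5 in training, 3 in TAU VEH against WT VEH, 0 in TAU MOL against TAU VEH, 1 in TAU MOL against WT VEH and 5 in both comparisons of THY-Tau22 with WT VEH_HC. In the same order, the block fits called 37 of 16324 genes in all, and 3000, 2794, 0, 1321, 6120 and 5419 of 16820. With the block and the GC and length offsets together, 1 was called in TAU VEH against WT VEH (Jun, with 720 genes in all) and 0 in the basal comparison (1 in all).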

Other observations

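The 2 untrained WT groups of the series differed in the level of some of these genes. Mean Fos was 20.0 CPM in basal WT mice, whose labels name no injection, and 4.79 CPM in WT VEH_HC mice, which received saline and stayed in the home cage, a ratio of 4.18 (4.36 with library size alone). Basal WT mice thus had about the Fos level of trained WT VEH mice (21.3 and 17.1 CPM). The ratio was 1.72 for Junb and 1.57 for Npas4, and 1.0 for Fosb, 0.893 for Fosl2, 0.803 for Jun and 0.804 for Jund. The tables come from separate experiments that were scaled separately, so experiment, injection and handling cannot be told apart, and the difference was not tested.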
